A study of Mus musculus with 12 samples.

Results

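The 9 chemokine genes Cxcl1, Cxcl2, Cxcl5, Cxcl10, Cxcl14, Cxcl16, Ccl2, Ccl5 and Ccl7 were taken by symbol from the 49585 genes of the count table. All 9 passed the filter on low counts, which left 16318 genes for testing. Calvarial osteoblast cultures came from C57BL/6J pups of postnatal days 3 to 5, either Bcl3-/- (a germline knockout, carried by every cell type of the culture) or wild type (WT). Cells of both genotypes received 50 µg/mL L-ascorbic acid and 2 mM β-glycerophosphate, which start osteogenic differentiation, and RNA was collected on day 1 and day 3. There were 4 groups of 3 libraries, namely day 3 Bcl3-/-, day 3 WT, day 1 Bcl3-/- and day 1 WT. The labels carry 6 codes, 3 of each genotype, and each code occurs on both days. A shared code was taken here as 1 culture sequenced on both days. The growth protocol gives 1 to 3 pooled calvariae per replicate, and the study's supplement gives 3.

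Chemokines are small secreted proteins that steer leukocytes through G protein-coupled receptors, and they are sorted into CC and CXC families by the spacing of the first conserved cysteines. CXC chemokines with a Glu-Leu-Arg motif, such as CXCL1, CXCL2 and CXCL5, draw neutrophils through CXCR2, whereas CXCL10 is induced by interferon and draws T cells through CXCR3. CCL2 and CCL7 draw monocytes through CCR2, and CCL5 draws T cells and monocytes. Many of these genes are known targets of NF-κB, and BCL3 is a nuclear IκB protein that binds p50 and p52 NF-κB homodimers. In bone, cells of the osteoblast lineage are a known source of chemokines, among them those that recruit monocytes, from which osteoclasts are formed.

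Total gene counts ranged between 20009732 and 41953891 per library. Bcl3 itself was measured at 10.2, 9.72 and 8.31 CPM in the day 3 libraries labelled Bcl3-/-, against 14.8, 15.9 and 12.8 CPM in day 3 WT libraries, and at 17.5, 19.7 and 19.2 CPM in the day 1 libraries labelled Bcl3-/-, against 17.95, 21.8 and 17.8 CPM in day 1 WT libraries. CPM is the count scaled to a common library total after TMM scaling for library composition. The Bcl3 counts thus did not separate the genotypes on day 1, and which part of the gene the allele lacks was not examined, so Bcl3-/- is used here as the label of a library. The 11 osteoblast markers, such as Col1a1 and Sparc, summed to 80630 to 86725 CPM in day 3 Bcl3-/-, 78281 to 84953 CPM in day 3 WT, 65359 to 68580 CPM in day 1 Bcl3-/- and 38264 to 55342 CPM in day 1 WT libraries. These sums follow the most abundant genes, and Col1a1 alone gave 47401, 44806 and 46061 CPM in day 3 Bcl3-/- libraries. Macrophage RNA was also present, and all 13 markers, such as Cd68 and Csf1r, were detected in each group. Their sums were 957, 687 and 488 CPM in day 3 Bcl3-/- libraries, 772 to 1174 CPM in day 3 WT libraries, 379 to 411 CPM in day 1 Bcl3-/- libraries and 328 to 526 CPM in day 1 WT libraries. Lyz2 alone gave 648, 472 and 323 CPM of the day 3 Bcl3-/- sums. In bulk RNA, fewer cells of a type and less RNA per cell cannot be told apart.

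On GRCm38, Cxcl5 (90759360 to 90761624), Cxcl1 (90891241 to 90893115) and Cxcl2 (90903871 to 90905938) lie on the plus strand of one stretch of chromosome 5, and Cxcl10 (92346638 to 92348889) lies on the minus strand of the same chromosome. Ccl2 (82035571 to 82037453, plus strand), Ccl7 (82045712 to 82047525, plus strand) and Ccl5 (83525778 to 83530518, minus strand) share chromosome 11 with Cxcl16 (70453983 to 70459984, minus strand). Cxcl14 (56288643 to 56296551, minus strand) is on chromosome 13. The exons of Cxcl10 overlap those of Art3 over 133 of 2252 bases, and the exons of Cxcl16 overlap those of Zmynd15 over 552 of 3021 bases, in both cases on the other strand. Without strand, reads from these shared bases cannot be told apart. Cxcl1 and Cxcl2 are related genes, and how reads that fit more than 1 place were handled was not given in the sources used here. Counts of the partner gene on the other strand were 0 to 83 per library for Art3 and 17 to 293 for Zmynd15.

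Because NF-κB sites are the best known control elements of these genes, promoter stretches are shown for the 4 of 9 genes with an entry in the RefSeq promoter table (GRCm38.p6). Each is cut from the 250 bases before the transcription start and is written 5′ to 3′ on the gene's own strand. Capitals mark matches, on either strand, to the κB consensus, to the interferon response core GAAANNGAA or to the AP-1 site TGANTCA.
Cxcl1 (chr5:90891149-90891209, plus strand): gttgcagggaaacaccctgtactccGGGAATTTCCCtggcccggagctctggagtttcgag
Cxcl2 (chr5:90903777-90903837, plus strand): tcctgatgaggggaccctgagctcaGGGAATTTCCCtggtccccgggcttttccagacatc
Cxcl10 (chr5:92348932-92349127, minus strand): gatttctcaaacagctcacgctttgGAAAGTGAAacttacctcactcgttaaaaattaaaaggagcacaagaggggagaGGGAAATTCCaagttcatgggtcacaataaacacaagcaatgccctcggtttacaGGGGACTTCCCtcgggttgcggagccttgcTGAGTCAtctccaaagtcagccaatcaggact
Cxcl14 (chr13:56296690-56296748, minus strand): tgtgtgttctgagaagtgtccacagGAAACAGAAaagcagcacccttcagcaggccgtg

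The neutrophil attractants Cxcl1 and Cxcl2 carried the same run of capitals, at -71 to -61 in Cxcl1 and at -97 to -87 in Cxcl2. This run is a pair of overlapping κB matches on opposite strands. The window of Cxcl10 held an interferon response core at -213 to -205, a κB match at -159 to -150, a pair of overlapping κB matches at -104 to -94 and an AP-1 site at -74 to -68. Cxcl14 had only an interferon response core, at -172 to -164. Of 32851 promoter windows of the same length, 7.25% held a κB match, 7.13% an interferon response core and 6.75% an AP-1 site. These matches are letters in a window, and binding was not measured.

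By group mean, Ccl7 was the most abundant of the 9 mRNAs per transcript length in each group, and Cxcl2 the least, in FPKM (fragments scaled by transcript length and library size). Ccl7 averaged 86.9 ± 17.6 FPKM in day 3 Bcl3-/-, 89.6 ± 2.49 FPKM in day 3 WT, 194 ± 36.5 FPKM in day 1 Bcl3-/- and 146 ± 19.0 FPKM in day 1 WT libraries (SD, n = 3 each). Ccl2 came next with means between 64.0 and 89.5 FPKM, followed by Cxcl14 with means between 23.0 and 63.3 FPKM. Among neighbours in this order, Ccl7 and Ccl2 overlapped in day 3 Bcl3-/- libraries, and Ccl2 and Cxcl14 overlapped in day 1 WT libraries. Below Cxcl14 in day 3 Bcl3-/- libraries, Ccl5, Cxcl5, Cxcl16 and Cxcl10 averaged 12.4, 10.4, 9.42 and 5.64 FPKM, and each neighbour in this run, Cxcl14 and Ccl5 included, overlapped the next. The same 4 genes averaged 19.8 (Ccl5), 12.5 (Cxcl5), 15.2 (Cxcl16) and 13.95 FPKM (Cxcl10) in day 3 WT libraries, again without a gap between neighbours. In day 1 Bcl3-/- libraries Cxcl5 stood clear of Ccl5 (40.8 ± 4.98 against 25.2 ± 2.07 FPKM, SD, n = 3 each), whereas in day 1 WT libraries their ranges overlapped (31.2 ± 4.48 and 43.4 ± 12.7 FPKM, SD, n = 3 each). Lower down, Cxcl16, Cxcl1 and Cxcl10 overlapped their neighbours in day 1 Bcl3-/- libraries (13.2, 11.7 and 10.0 FPKM on average), and Cxcl10 overlapped Cxcl2 in day 1 WT libraries (3.35 and 2.45 FPKM). Cxcl2 averaged 0.446 ± 0.536 FPKM in day 3 Bcl3-/-, 0.965 ± 0.324 FPKM in day 3 WT, 3.52 ± 1.49 FPKM in day 1 Bcl3-/- and 2.45 ± 0.884 FPKM in day 1 WT libraries (SD, n = 3 each).

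**Figure D1:**
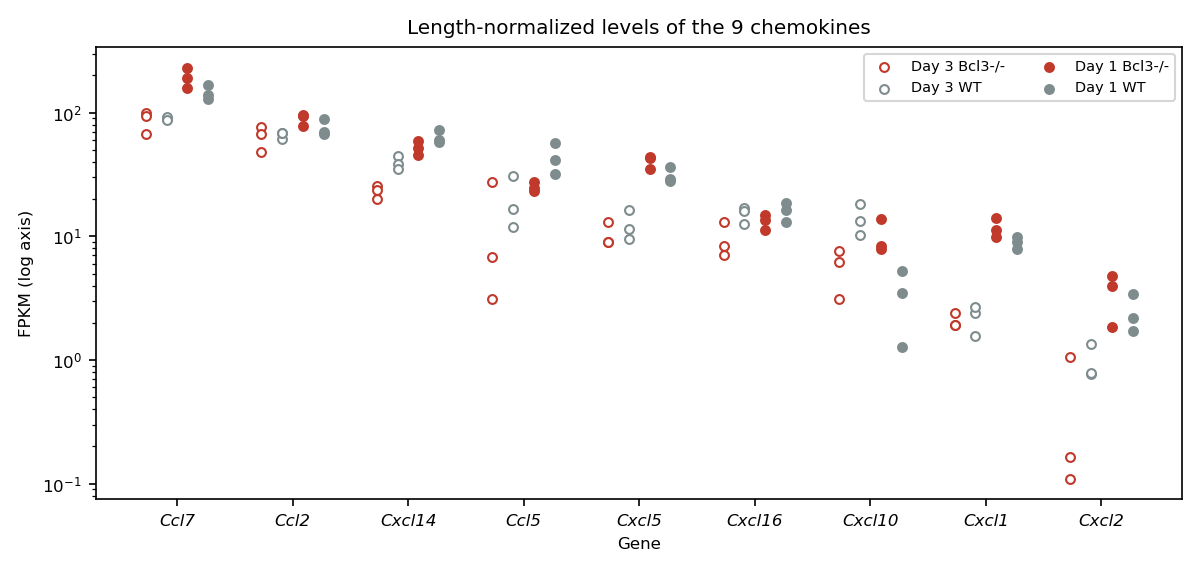
FPKM of the 9 chemokine mRNAs (log axis), 1 point per library, with open symbols for day 3, filled symbols for day 1, red for Bcl3-/- and grey for WT. By group mean Ccl7 is highest and Cxcl2 lowest in each group, though some single points overlap those of other genes. Ccl5 and Cxcl2 spread most widely among the 3 day 3 Bcl3-/- libraries.

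Comparing day 3 with day 1 shows how these genes changed between the sampled days. Both days followed the osteogenic supplements and no culture without them was sequenced, so differentiation and time in culture cannot be told apart. In Bcl3-/- cultures 5 of the 9 chemokines fell (Cxcl1, Cxcl2, Cxcl5, Cxcl14 and Ccl7) and none rose, with a median log2 fold change of -1.05 over the 9 against 0.00 over all tested genes. Of all tested genes, 16.2% rose and 17.2% fell in that comparison (edgeR quasi-likelihood test, Benjamini-Hochberg adjusted p under 0.05, as for each call below). In WT cultures 4 fell (Cxcl1, Cxcl5, Cxcl14 and Ccl7) and 1 rose (Cxcl10), with a median of -0.63 against 0.00 over all tested genes, beside 20.6% of all genes that rose and 17.9% that fell. The sum of the 9 genes was 219, 191 and 137 CPM in day 3 Bcl3-/- libraries and 353, 327 and 425 CPM in day 1 Bcl3-/- libraries. In WT cultures it was 240, 232 and 216 CPM on day 3 and 311, 298 and 379 CPM on day 1.

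Cxcl1, a neutrophil attractant, was measured at 1.92, 2.07 and 2.10 CPM in day 3 Bcl3-/- libraries against 8.82, 13.4 and 10.3 CPM in day 1 Bcl3-/- libraries. In WT cultures it was 2.32, 1.57 and 2.36 CPM on day 3 and 7.51, 8.99 and 8.44 CPM on day 1. Day 3 lay far below day 1 in both genotypes, with no overlap. The day 3 mean was 0.188 of the day 1 mean in Bcl3-/- cultures (log2 fold change -2.41, SE 0.19, edgeR adjusted p = 5.21e-06) and 0.250 of it in WT cultures (-2.00, SE 0.19, edgeR adjusted p = 1.61e-05).

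Cxcl5, which draws neutrophils through the same receptor, had 13.7, 20.0 and 13.5 CPM in day 3 Bcl3-/- libraries against 49.7, 61.0 and 63.1 CPM in day 1 Bcl3-/- libraries. WT cultures held 23.9, 17.2 and 13.8 CPM on day 3 and 39.9, 39.1 and 51.3 CPM on day 1. The days again did not overlap in either genotype. The log2 fold changes were -1.88 (SE 0.21, edgeR adjusted p = 5.26e-05) in Bcl3-/- and -1.25 (SE 0.20, edgeR adjusted p = 0.000484) in WT cultures. The difference between these changes, -0.62 (SE 0.29), did not pass the edgeR test (adjusted p = 0.417).

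Cxcl2, the third neutrophil attractant, was measured at 1.14, 0.162 and 0.105 CPM in day 3 Bcl3-/- libraries, from 35, 5 and 2 counts, against 2.02, 3.89 and 4.84 CPM in day 1 Bcl3-/- libraries. In WT cultures the values were 1.13, 0.859 and 0.753 CPM on day 3 and 2.13, 1.57 and 3.33 CPM on day 1. The first day 3 Bcl3-/- library was at the level of day 3 WT and the other 2 were far lower. Cxcl2 fell over time in Bcl3-/- cultures (log2 fold change -2.82, SE 0.61, edgeR adjusted p = 0.00400), and in WT cultures the change of -1.37 (SE 0.56) missed the threshold in edgeR (adjusted p = 0.0705) and passed in DESeq2 (adjusted p = 0.0408). Without replicates 2 and 3 of day 3 Bcl3-/-, a fit in which the lone library is assumed to vary like the other groups, the Bcl3-/- change was -1.64 (edgeR adjusted p = 0.0741).

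Cxcl14, a constitutively expressed chemokine of many tissues, had 44.8, 41.2 and 35.0 CPM in day 3 Bcl3-/- libraries against 84.7, 74.5 and 98.8 CPM in day 1 Bcl3-/- libraries. WT cultures had 75.8, 66.7 and 59.2 CPM on day 3 and 95.4, 93.4 and 119 CPM on day 1. It fell in both genotypes, by 1.09 on the log2 scale in Bcl3-/- (SE 0.14, edgeR adjusted p = 0.000136) and by 0.61 in WT cultures (SE 0.14, edgeR adjusted p = 0.00366).

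Ccl7, a monocyte attractant, was at 66.0, 61.6 and 41.3 CPM in day 3 Bcl3-/- libraries and at 116, 92.8 and 141 CPM in day 1 Bcl3-/- libraries. Its WT values were 53.9, 59.4 and 53.2 CPM on day 3 and 79.4, 78.2 and 99.7 CPM on day 1. The days were apart in each genotype, and the log2 fold changes were -1.05 (SE 0.18, edgeR adjusted p = 0.000980) in Bcl3-/- and -0.63 (SE 0.18, edgeR adjusted p = 0.0144) in WT cultures. The WT call was lost without the third day 3 WT library (-0.60, edgeR adjusted p = 0.0538) or without the third day 1 WT library (-0.52, edgeR adjusted p = 0.0568).

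Ccl2, the neighbour of Ccl7 on chromosome 11 and a ligand of the same receptor, had 52.8, 45.2 and 30.5 CPM in day 3 Bcl3-/- libraries against 58.9, 47.1 and 61.2 CPM in day 1 Bcl3-/- libraries. In WT cultures it had 38.7, 45.7 and 43.2 CPM on day 3 and 41.4, 42.0 and 54.6 CPM on day 1. The days overlapped in both genotypes, and neither change passed (-0.38, SE 0.18, edgeR adjusted p = 0.125 in Bcl3-/- and -0.11, SE 0.18, edgeR adjusted p = 0.655 in WT cultures). Without the first day 3 Bcl3-/- library the Bcl3-/- change was -0.55 and passed (edgeR adjusted p = 0.0376).

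**Figure D2:**
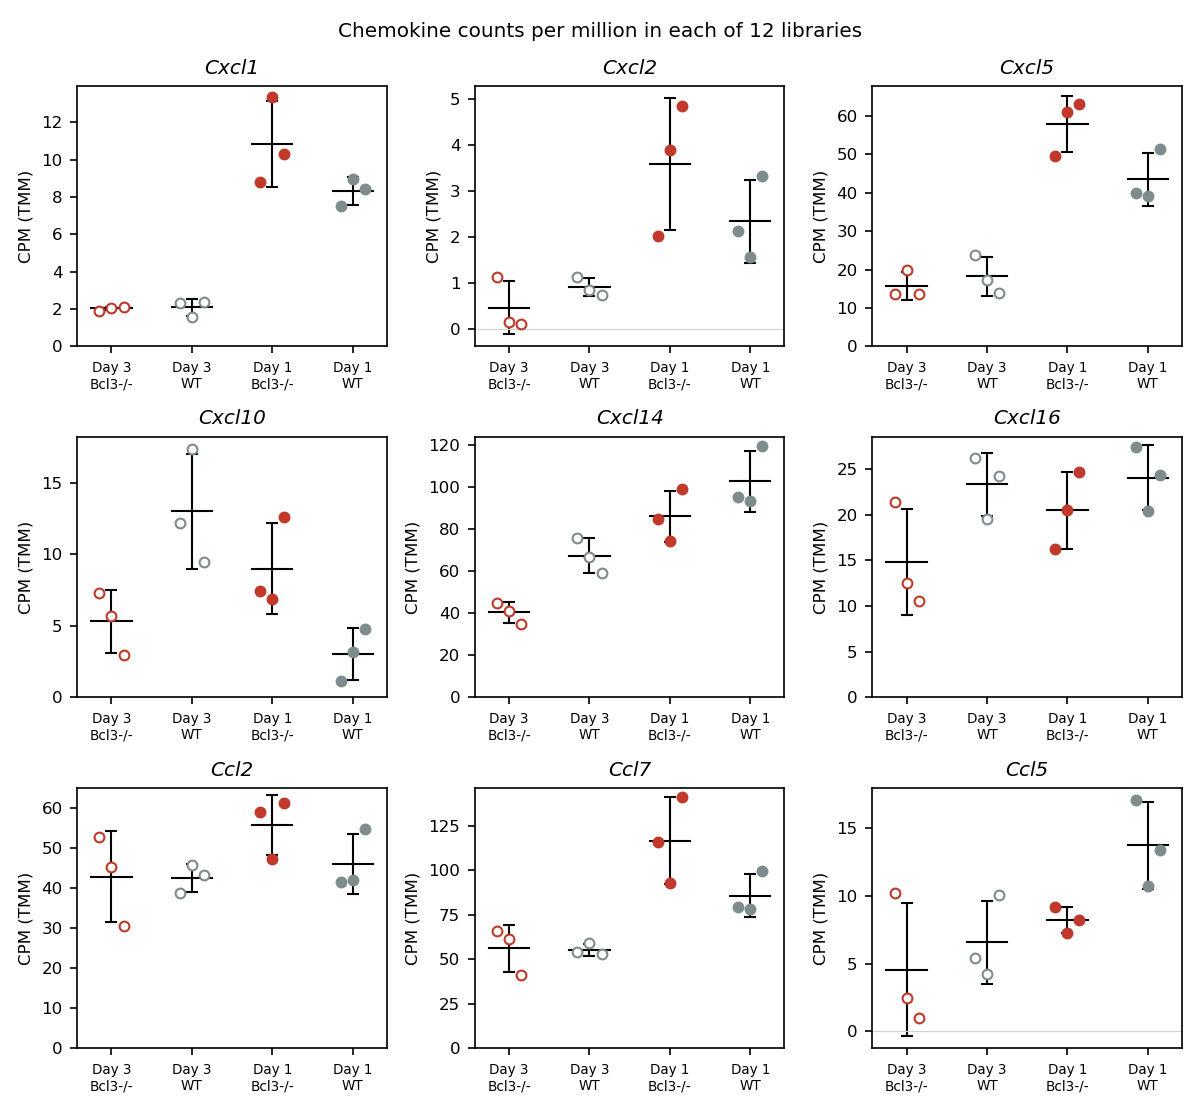
TMM-scaled CPM of each of the 9 chemokines, 1 point per library, in day 3 Bcl3-/-, day 3 WT, day 1 Bcl3-/- and day 1 WT cultures, with the mean (line) and SD (bars, n = 3, some reaching below 0). Cxcl1, Cxcl5, Cxcl14 and Ccl7 lie lower on day 3 than on day 1 in both genotypes, while Cxcl10 lies higher in Bcl3-/- than in WT on day 1 and lower on day 3.

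Comparing genotypes within a day gave few calls among the chemokines. On day 3, 1 of the 9 was lower in Bcl3-/- cultures (Cxcl14) and none was higher, beside 4.78% of all tested genes that were higher and 5.6% that were lower. On day 1, 1 of the 9 was higher (Cxcl10) and none was lower, beside 9.03% of all genes that were higher and 6.26% that were lower. The median log2 fold change of the 9 was -0.49 on day 3, with 2 values above and 7 below 0, and 0.38 on day 1, with 6 above and 3 below 0. Medians over all tested genes were 0.00 on both days. Of the 9, 3 had an unadjusted edgeR p under 0.05 on day 3 and 2 on day 1. All tested genes were not counted at that unadjusted threshold, so no share stands beside these counts. The count of 1 of 9 called on either day is close to the shares of all genes called.

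Cxcl10, the interferon-induced T cell attractant, showed opposite genotype differences on the 2 days. It was measured at 7.32, 5.67 and 2.95 CPM in day 3 Bcl3-/- libraries against 12.2, 17.4 and 9.43 CPM in day 3 WT libraries. On day 1 it had 7.46, 6.85 and 12.6 CPM in Bcl3-/- libraries against 1.13, 3.16 and 4.77 CPM in WT libraries. The genotypes did not overlap on either day. The Bcl3-/- mean was 0.409 of the WT mean on day 3, a log2 fold change of -1.27 (SE 0.42) that missed the threshold (edgeR adjusted p = 0.0780). On day 1 the Bcl3-/- mean was 2.97-fold the WT mean (log2 fold change 1.52, SE 0.43, edgeR adjusted p = 0.0338). That call was lost when any 1 of the 3 day 1 Bcl3-/- libraries, the first day 1 WT library or the second was left out, with log2 fold changes of 1.17 to 1.68 and edgeR adjusted p between 0.0558 and 0.144.

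Over time Cxcl10 rose in WT cultures, the day 3 mean being 4.30-fold the day 1 mean (log2 fold change 2.06, SE 0.44, edgeR adjusted p = 0.00279), and the days did not overlap. In Bcl3-/- cultures the days overlapped and the change was -0.73 (SE 0.42, edgeR adjusted p = 0.206). The test of the difference between these changes, the interaction of genotype and time, gave -2.79 on the log2 scale (SE 0.61), just short of the threshold in edgeR (adjusted p = 0.0506) and past it in DESeq2 (-2.84, adjusted p = 0.00883). Over the alternative settings the interaction lay between -3.22 and -2.35, and it passed in only 5 of 22 of them. Of the 9 chemokines, 0 passed the interaction in edgeR, beside 0.172% of all tested genes that passed upward and 0.95% that passed downward. In DESeq2 1 passed (Cxcl10, downward), beside 95 genes that passed upward and 393 downward of 16318. At an unadjusted edgeR p under 0.05 there were 2 of the 9, and all tested genes were not counted at that threshold. The median interaction of the 9 was -0.42, against -0.01 over all tested genes, and 8 of the 9 values were below 0.

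Interferon-induced genes were read beside Cxcl10. Of 16 such genes, 0 were higher and 1 was lower (Mx1, an antiviral GTPase, log2 fold change -1.36, SE 0.23, edgeR adjusted p = 0.00414) in Bcl3-/- cultures on day 3. On day 1, 14 were higher in Bcl3-/- cultures and 0 were lower, among them Oas1a, an RNA sensor (2.58, SE 0.34, edgeR adjusted p = 0.00105). In Bcl3-/- cultures 4 of the 16 rose over time, and in WT cultures all 16 rose. The interaction was below 0 for all 16 and passed for 10 of them in the fit of all 12 libraries. Interaction calls over all genes depended on single libraries, as given further below. Of all tested genes, 5.6% were lower on day 3 and 9.03% higher on day 1. Over time 16.2% rose in Bcl3-/- and 20.6% in WT cultures, and 0.95% passed the interaction downward. The 16 genes were chosen with earlier results of these data known. Their summed level was 1586, 1347 and 1238 CPM in day 3 Bcl3-/- libraries against 2089, 2087 and 1640 CPM in day 3 WT libraries, and 745, 795 and 1249 CPM in day 1 Bcl3-/- libraries against 201, 238 and 460 CPM in day 1 WT libraries. These sums, like Cxcl10, did not overlap between genotypes on either day, but they follow the most abundant of the 16 genes. Single genes did not all share this, since Oas1a and Isg15 overlapped between genotypes on day 3 and Mx1 on day 1. The day 3 log2 fold change was below 0 for 15 of the 16 genes and above 0 for 1 (Oas1a). Overlap was not counted over all tested genes. Cxcl9, another interferon-induced ligand of CXCR3, was also higher in Bcl3-/- cultures on day 1 (1.33, SE 0.33, edgeR adjusted p = 0.0179) and rose over time in WT cultures (1.54, SE 0.33, edgeR adjusted p = 0.00278). The part of these genes' activity in the Cxcl10 result was not tested.

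Cxcl14 was the only one of the 9 called between genotypes on day 3. Its values given above placed all 3 day 3 Bcl3-/- libraries below all 3 WT libraries, with a mean of 0.600 of WT (log2 fold change -0.73, SE 0.14, edgeR adjusted p = 0.00719). On day 1 the genotypes overlapped and the difference was -0.26 (SE 0.14, edgeR adjusted p = 0.237). The interaction, -0.48 (SE 0.19), did not pass (edgeR adjusted p = 0.333), so the genotype difference is not shown to differ between the days. With only the first day 3 Bcl3-/- library in that group the day 3 difference was -0.58.

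None of the neutrophil and monocyte attractants was called between genotypes in the edgeR fit of all 12 libraries. Cxcl1, Cxcl2, Cxcl5, Ccl2 and Ccl7 had log2 fold changes between 0.28 and 0.60 on day 1, with edgeR adjusted p between 0.115 for Ccl7 and 0.489 for Cxcl2, and the libraries of the genotypes overlapped for each. The day 1 difference of Ccl7 passed without the count filter (0.46, edgeR adjusted p = 0.0292) and without the third day 3 Bcl3-/- library (0.44, edgeR adjusted p = 0.0474). On day 3 Cxcl1, Ccl2 and Ccl7 had log2 fold changes of -0.04, 0.01 and 0.02 (edgeR adjusted p between 0.926 and 0.972), Cxcl5 at -0.21 (SE 0.21) and Cxcl2 at -0.84 (SE 0.65). Their interactions ranged between -1.45 for Cxcl2 and -0.26 for Ccl2, and none passed.

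**Figure D3:**
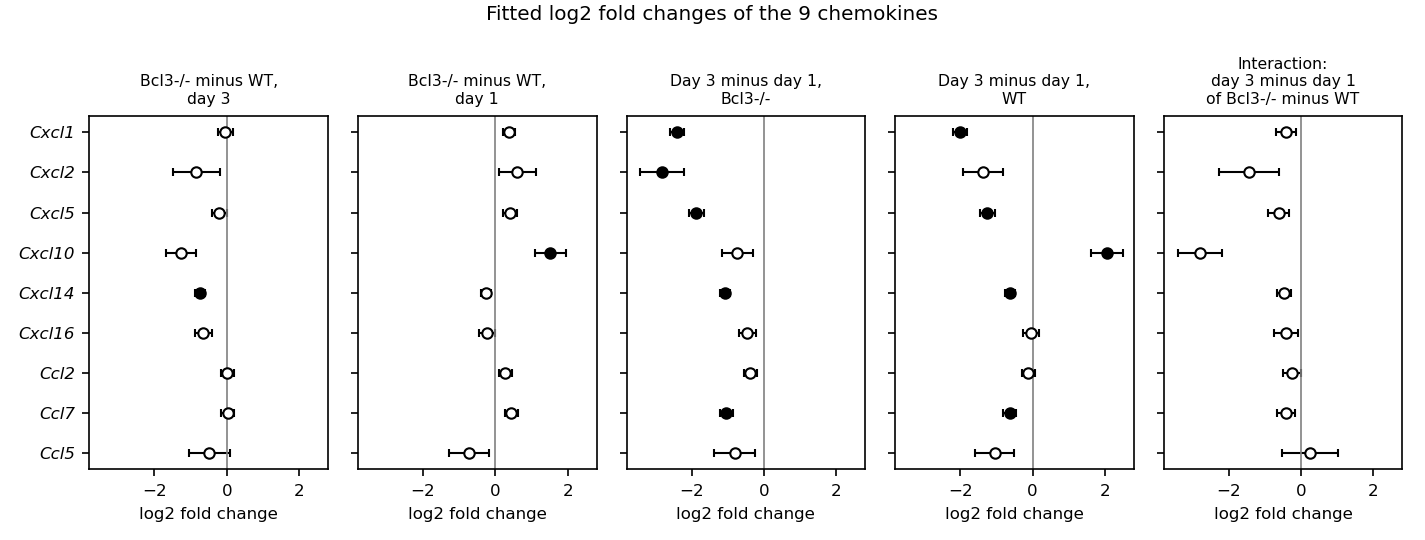
Fitted log2 fold changes (points) with SE (bars) of the 9 chemokines in 5 edgeR comparisons, filled where the adjusted p was under 0.05. Filled points are Cxcl14 between genotypes on day 3, Cxcl10 on day 1, 5 genes over time in Bcl3-/- cultures and 5 over time in WT cultures, while no interaction is filled.

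Cxcl16, Ccl5 and Cxcl2 shared a split among the day 3 Bcl3-/- libraries. Cxcl16, a membrane-anchored chemokine that binds CXCR6, was at 21.4, 12.5 and 10.6 CPM in day 3 Bcl3-/- libraries against 26.2, 19.5 and 24.3 CPM in day 3 WT libraries. On day 1 it was at 16.3, 20.5 and 24.7 CPM in Bcl3-/- libraries and 27.5, 20.4 and 24.3 CPM in WT libraries. Replicates 2 and 3 of day 3 Bcl3-/- were lower than all of the other 10, and the first lay among the WT values. The day 3 genotype difference of -0.64 (SE 0.24) did not pass in edgeR (adjusted p = 0.103) and passed in DESeq2 (-0.65, adjusted p = 0.0460), and the day 1 difference was -0.23 (SE 0.23, edgeR adjusted p = 0.573). Neither change over time passed in edgeR (-0.46, SE 0.24, adjusted p = 0.160 in Bcl3-/- and -0.04, SE 0.23, adjusted p = 0.911 in WT cultures).

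Ccl5, a T cell and monocyte attractant, had 10.2, 2.49 and 0.999 CPM in day 3 Bcl3-/- libraries against 5.38, 4.27 and 10.1 CPM in day 3 WT libraries. On day 1 it had 9.18, 7.30 and 8.20 CPM in Bcl3-/- libraries against 17.1, 10.7 and 13.4 CPM in WT libraries. The first day 3 Bcl3-/- library was at or slightly above the highest day 3 WT library and the other 2 were below all of them, whereas on day 1 each Bcl3-/- library was below each WT library. The genotype differences were -0.49 (SE 0.57, edgeR adjusted p = 0.628) on day 3 and -0.73 (SE 0.54, edgeR adjusted p = 0.421) on day 1. Neither change over time passed with all 12 libraries (-0.80, SE 0.56, edgeR adjusted p = 0.297 in Bcl3-/- and -1.05, SE 0.55, edgeR adjusted p = 0.154 in WT cultures). Fitted on the 6 day 1 libraries alone, the day 1 difference was -0.71 and passed (edgeR adjusted p = 0.0263), and on the 6 WT libraries alone the change over time was -1.03 and passed (edgeR adjusted p = 0.0351). The WT change over time also passed without the count filter (edgeR adjusted p = 0.0474) and without the first day 3 Bcl3-/- library (edgeR adjusted p = 0.0211).

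A set of other immune genes divided the same libraries. Ccr7, a receptor of activated dendritic cells and lymphocytes, was at 58.2, 0.583 and 0.473 CPM in day 3 Bcl3-/- libraries, against 74.8, 42.8 and 65.0 CPM in day 3 WT libraries and 44.4 to 135 CPM in day 1 libraries. The chemokine Ccl22, which such cells release, was at 17.6, 0.0972 and 0.0526 CPM in day 3 Bcl3-/- libraries, against 39.7, 22.8 and 19.5 CPM in day 3 WT libraries. Il1b, a cytokine that induces many chemokines, was at 9.27, 0.0324 and 0.210 CPM in day 3 Bcl3-/- libraries, against 13.8, 10.2 and 9.63 CPM in day 3 WT libraries. In replicates 2 and 3 of day 3 Bcl3-/- these 3 genes were near 0, and in the first they stood at or near WT levels. Macrophage markers were present in all 3 at the sums given above, lymphocyte markers summed to 5.11, 2.88 and 2.37 CPM in day 3 Bcl3-/- and 4.96 to 5.62 CPM in day 3 WT libraries, and neutrophil markers to under 1 CPM in each of these. The part of such cells in the Cxcl16, Ccl5 and Cxcl2 values was not tested.

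Results that rest on this split changed with the libraries used. Without the first day 3 Bcl3-/- library, 4 of the 9 chemokines were lower in Bcl3-/- cultures on day 3, beside 5.86% of all tested genes in that fit, namely Cxcl2 (-2.66, edgeR adjusted p = 0.0261), Cxcl14, Cxcl16 (-1.01, edgeR adjusted p = 0.00866) and Ccl5 (-1.85, edgeR adjusted p = 0.0177), and 8 of the 9 fell over time in Bcl3-/- cultures, beside 15.2% of all tested genes. Without replicates 2 and 3 the group holds 1 library, and only 8 of 17545 genes were called higher and 0 lower on day 3, so that fit is given for its values alone. The day 3 genotype differences were then 0.33 for Cxcl2 and 0.62 for Ccl5, above 0, against -0.84 and -0.49 with all 3 libraries.

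**Figure D4:**
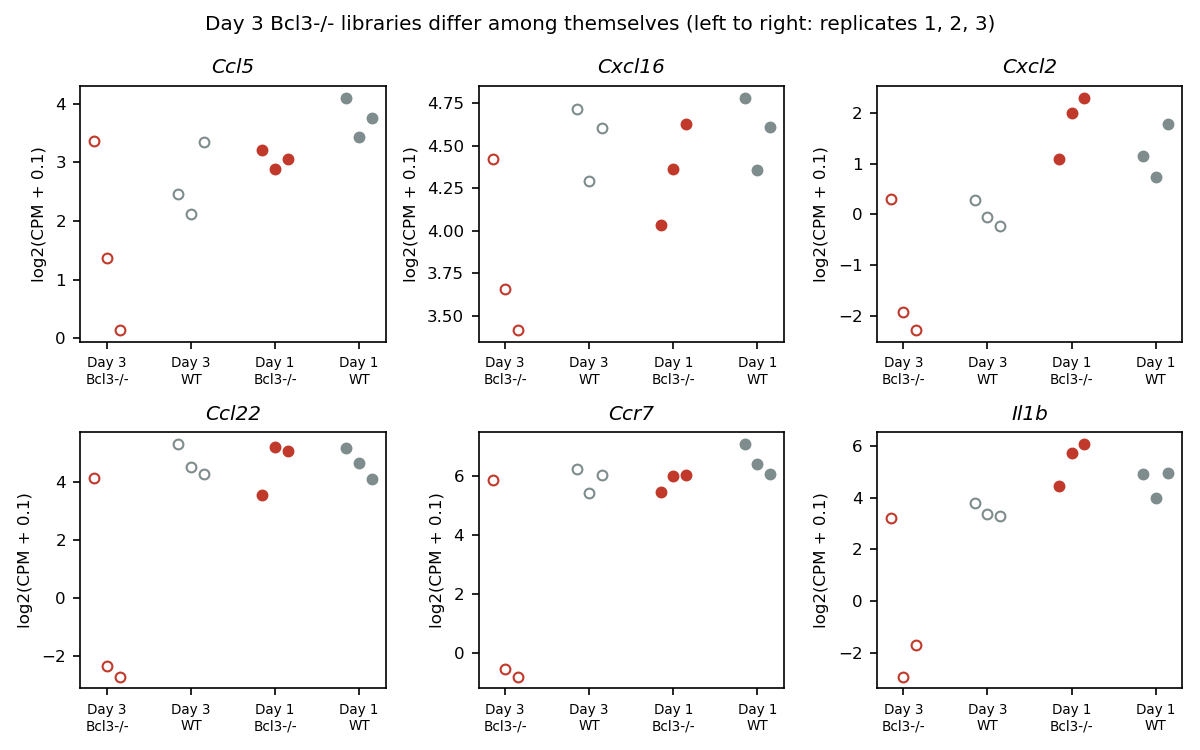
log2(CPM + 0.1) of 3 chemokines (top) and of Ccl22, Ccr7 and Il1b (bottom), 1 point per library, with replicates 1, 2 and 3 from left to right in each group. In day 3 Bcl3-/- cultures replicate 1 lies with or near the WT libraries in each panel, and replicates 2 and 3 lie below all other libraries.

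Chemokine receptors, those of these ligands and others, were measured in the same cultures. Of 23 receptor genes 17 were tested. In Bcl3-/- cultures on day 3, 0 were higher and 2 lower, beside 4.78% and 5.6% of all tested genes. On day 1, 1 was higher and 1 lower, beside 9.03% and 6.26%. Over time 1 rose and 6 fell in Bcl3-/- cultures, beside 16.2% and 17.2% of all tested genes. In WT cultures 4 rose and 3 fell, beside 20.6% and 17.9%. Cxcr6, the receptor of CXCL16, was at 0.358, 0.291 and 0.105 CPM in day 3 Bcl3-/- libraries against 3.10, 2.52 and 0.753 CPM in day 3 WT libraries, and at 1.92, 1.12 and 2.34 CPM in day 1 Bcl3-/- libraries against 11.4, 9.52 and 5.89 CPM in day 1 WT libraries. It was lower in Bcl3-/- on both days without overlap (log2 fold change -2.94, SE 0.60, edgeR adjusted p = 0.0101 on day 3, and -2.30, SE 0.44, edgeR adjusted p = 0.00493 on day 1). It also fell over time in both genotypes (log2 fold change -2.73 in Bcl3-/- and -2.09 in WT cultures).

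Cx3cr1, the receptor of the chemokine CX3CL1 on monocytes and macrophages, was at 1.17, 1.36 and 0.210 CPM in day 3 Bcl3-/- libraries against 10.8, 7.55 and 10.4 CPM in day 3 WT libraries. Its interaction passed (-2.61, SE 0.56, edgeR adjusted p = 0.0499). Ackr3, a scavenger receptor for CXCL12, was higher in Bcl3-/- cultures on day 1 (0.50, SE 0.10, edgeR adjusted p = 0.00591) and had an interaction of -0.69 (SE 0.14, edgeR adjusted p = 0.0387). Ackr4, a scavenger receptor for CC chemokines, rose over time by 2.50 in Bcl3-/- (SE 0.34, edgeR adjusted p = 0.000220) and by 2.61 in WT cultures (SE 0.35, edgeR adjusted p = 0.000145), and Ccrl2, which presents chemerin, fell by 2.30 in Bcl3-/- cultures (SE 0.41, edgeR adjusted p = 0.00124).

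Receptors of the neutrophil and monocyte attractants and of CXCL10 were also read. Cxcr2, the receptor of CXCL1, CXCL2 and CXCL5, was below 1 CPM in all 12 libraries, as was Cxcr3, the receptor of CXCL10, and neither was called in any comparison. Ccr2, the receptor of CCL2 and CCL7, was at 2.76, 0.324 and 0 CPM in day 3 Bcl3-/- libraries against 1.30, 1.35 and 1.98 CPM in day 3 WT libraries, and at 1.74, 2.15 and 3.79 CPM in day 1 Bcl3-/- libraries against 2.17, 2.44 and 2.40 CPM in day 1 WT libraries. As for Ccr7, replicates 2 and 3 of day 3 Bcl3-/- were the lowest.

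Other chemokine ligands were counted in the same way. Of 29 further ligand genes 17 were tested, and in Bcl3-/- cultures 1 was higher and 1 lower on day 3, and 2 were higher and 1 lower on day 1. Over time 4 rose and 1 fell in Bcl3-/- cultures, and 6 rose and 1 fell in WT cultures. Of all tested genes, 4.78% were higher and 5.6% lower on day 3, and 9.03% higher and 6.26% lower on day 1. Over time 16.2% rose and 17.2% fell in Bcl3-/- cultures, and 20.6% rose and 17.9% fell in WT cultures. Cxcl12, the stromal ligand that holds hematopoietic cells in bone marrow, was at 452, 688 and 621 CPM in day 3 Bcl3-/- libraries against 281, 341 and 300 CPM in day 3 WT libraries, and at 201, 247 and 228 CPM in day 1 Bcl3-/- libraries against 73.5, 80.1 and 92.2 CPM in day 1 WT libraries. It was higher in Bcl3-/- on both days without overlap (log2 fold change 0.93, SE 0.14, edgeR adjusted p = 0.00305 on day 3, and 1.46, SE 0.15, edgeR adjusted p = 0.000291 on day 1). Ppbp, a platelet chemokine, was lower in Bcl3-/- cultures on both days (-2.55, SE 0.74, edgeR adjusted p = 0.0484 on day 3, and -1.94, SE 0.35, edgeR adjusted p = 0.00358 on day 1). Ccl8, a monocyte attractant, rose over time in both genotypes, by 2.20 in Bcl3-/- (SE 0.39, edgeR adjusted p = 0.00124) and 3.11 in WT cultures (SE 0.46, edgeR adjusted p = 0.000244).

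Inducers of chemokines and NF-κB genes numbered 25, of which 22 were tested. In Bcl3-/- cultures on day 3, 0 were higher and 4 lower, among them Rel, an NF-κB subunit (-0.74, SE 0.14, edgeR adjusted p = 0.00844), and Bcl3 itself (-0.62, SE 0.12, edgeR adjusted p = 0.00863). Bcl3 is the targeted gene and is 1 of these 4. On day 1, 5 were higher and 0 lower, among them the RNA sensor Tlr3 (1.01, SE 0.19, edgeR adjusted p = 0.00444). Over time 2 rose and 11 fell in Bcl3-/- cultures, and 5 rose and 3 fell in WT cultures. Of all tested genes, 4.78% were higher and 5.6% lower on day 3, and 9.03% higher and 6.26% lower on day 1. Over time 16.2% of them rose and 17.2% fell in Bcl3-/- cultures, and 20.6% rose and 17.9% fell in WT cultures. These shares also stand beside the marker counts that follow. Of the 13 macrophage markers, 0 were higher and 1 lower (Csf1r) in Bcl3-/- cultures on day 3 and 0 were called on day 1, while 9 rose over time in Bcl3-/- and 11 in WT cultures. Macrophage markers thus rose over the same days on which Cxcl1, Cxcl5, Cxcl14 and Ccl7 fell, and their part in that fall was not tested. Of the 11 osteoblast markers, 3 were higher and 1 lower in Bcl3-/- cultures on day 3, 5 were higher and 1 lower on day 1, and over time 5 rose and 3 fell in Bcl3-/- and 5 rose and 2 fell in WT cultures. Of 10 lymphocyte markers 7 were tested, and 5 fell over time in Bcl3-/- and 3 in WT cultures, with 0 called between genotypes on either day by edgeR. Of 9 neutrophil markers 1 was tested and was not called. Tek was the only endothelial marker called among 5 tested, higher in Bcl3-/- cultures on both days and higher on day 3 in both genotypes.

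Across the 12 libraries, which share group, day and culture, the levels of some chemokines ran together. On log2 CPM, Cxcl1 and Cxcl5 correlated at 0.950 over all libraries and at 0.224 after group means were removed, so their likeness lay mainly between the groups. Ccl2 and Ccl7 correlated at 0.842 over all libraries and at 0.942 within groups, and Cxcl2 and Cxcl16 at 0.755 and, within groups, 0.895. Outside the 9, the genes with the highest correlation over the 12 libraries, among 11983 candidates, were Nectin2, Prrc2a and Asic3 for Cxcl1 (0.970 to 0.979), Nectin2, Pigu and Ctcf for Cxcl5 (0.968 to 0.978) and Il1r2, Fosb and Hspa1a for Cxcl2 (0.972 to 0.978). For Cxcl10 they were Fdps, Fah and Gm3571 (0.922 to 0.936), for Cxcl14 Klf6, Mboat1 and Zfp367 (0.970 to 0.973) and for Cxcl16 Csf2ra, Spint2 and Spi1 (0.969 to 0.975). For Ccl2 they were Metrn, Mrpl46 and Dpysl2 (0.862 to 0.879), for Ccl5 Il21r, Cd40 and Havcr2 (0.921 to 0.932) and for Ccl7 Mtrf1l, Stmn1 and Pigu (0.929 to 0.955).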

How the data were processed

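RNA of 6 calvarial osteoblast cultures, taken on 2 days (12 libraries in 4 groups of 3), was amplified with the SMART-seq v4 kit, which does not keep strand, and sequenced with paired reads of 75 bases. The authors trimmed reads with Trim Galore, aligned them to GRCm38 with TopHat2 and counted them with HTSeq, and the deposited counts are not normalized. The authors' FPKM values come from Cufflinks and were used here for levels between genes. Versions, the strand setting and the annotation release were not given in the sources used here. Names and positions came from GENCODE M21, for 49326 of 49585 IDs. The 5 entries for reads outside genes held 12.3 to 14.7% per library and were left out.

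Genes passing edgeR's filterByExpr (16318) were scaled by TMM and fitted with 4 groups by quasi-likelihood, and p-values were adjusted by Benjamini-Hochberg over all tested genes. Standard errors were taken as the log2 fold change divided by the root of F. The script was tested on simulated data. Correlations used log2 CPM with a prior count of 2. The libraries of a culture on the 2 days were matched by the shared codes of the labels. Deviations from group means correlated at -0.16 to -0.02 between days in Bcl3-/- and 0.24 to 0.33 in WT cultures. In Bcl3-/- the match of days thus rests on the codes, and the levels did not show it.

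The 9 chemokines and the gene lists (other ligands, receptors, inducers and NF-κB genes, interferon-induced genes, and markers of osteoblasts, macrophages, neutrophils, lymphocytes and endothelium) were chosen with earlier results of these data known. Named were the 9; Bcl3; up to 3 called ligands and receptors per comparison by adjusted p; up to 2 examples of other lists; and the 3 genes most correlated with each chemokine. Outside this rule, Ccr7, Ccl22, Il1b, Cxcr2, Cxcr3 and Ccr2 were chosen after their values were seen. Some genes that the rule selects are named nowhere in the text, and their results are not reported here. Alternatives were DESeq2, other scalings and filters, limma on log2 FPKM, the 6 libraries compared, replicate blocks and leaving out libraries. R 4.3.3 with edgeR 4.0.16, DESeq2 1.42.0 and limma 3.58.1, and Python 3.11.15 with pandas 2.3.3, numpy 2.4.6 and matplotlib 3.10.9 were used.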

Additional observations from a re-analysis of the deposited data

Results flagged for a closer look

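For Cxcl10, all Bcl3-/- libraries lay below all WT libraries on day 3 and above them on day 1, and the difference between the genotype effects of the 2 days was -2.79 on the log2 scale (SE 0.61, edgeR adjusted p = 0.0506). Among the further genes named, the genotype effect differed between the days by the edgeR interaction test for Oas1a (-2.46, adjusted p = 0.0335), Tlr3 (-1.38, adjusted p = 0.0335), Ackr3 (-0.69, adjusted p = 0.0387) and Cx3cr1 (-2.61, adjusted p = 0.0499). In each of these the Bcl3-/- minus WT difference was lower on day 3 than on day 1. Interaction calls over all tested genes depended on single libraries. With all 12 libraries 28 genes passed upward and 155 downward. Without the second day 1 WT library these were 1 and 1, and without the second day 3 Bcl3-/- library 0 and 1. Without the third day 1 WT library they were 81 and 394. Whether the further genes named here pass in such fits is not reported.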

How the results depend on the processing

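Of 1008 alternative values of the 9 chemokines, 932 kept their direction and their side of the threshold, 34 passed it newly, 9 no longer passed and 33 changed sign. Called values changed sign under none of the settings run. On day 1 the number of chemokines called between genotypes was 1, and it was 2 without the count filter (both higher), 2 with only the 6 libraries compared (1 higher, 1 lower) and 4 with a replicate block by title number (Cxcl5, Cxcl10 and Ccl7 higher, Ccl5 lower). On day 3 it was 1, and 2 with DESeq2, 3 without the count filter, 2 with the replicate block by title number and 0 without replicates 2 and 3 of day 3 Bcl3-/-, a setting chosen after seeing the data that leaves 1 library in that group and in which 8 of 17545 genes were called higher and 0 lower. For the interaction it was 0, and 1 each with DESeq2, without the count filter and with limma on log2(FPKM + 1), each time Cxcl10. Leaving out 1 library at a time gave 0 to 2 calls on day 1, 1 to 4 on day 3, 0 to 2 for the interaction and 5 to 8 over time in Bcl3-/- cultures, the highest of the last 3 without the first day 3 Bcl3-/- library. Calls over all tested genes moved as well. On day 1 they were 1473 higher and 1021 lower of 16318 in the main fit. Without the count filter they were 1573 and 855 of 30749. With the 6 libraries they were 1572 and 1179 of 15732, and with the title block 1111 and 631 of 15732. In the day 1 fits with 0 chemokines called, 723 to 1031 genes were higher and 452 to 598 lower, of 16655 to 16747 tested. Day 3 calls over all genes were 1089 higher and 1252 lower of 16318 with DESeq2. Without the count filter these were 839 and 1269 of 30749, and with the title block 363 and 200 of 15462. Interaction calls were 80 and 472 of 30749 without the count filter and 36 and 317 of 16735 without the first day 3 Bcl3-/- library. The labels do not say that title numbers pair the genotypes. Deviations from group means of same-numbered libraries correlated between genotypes at -0.06 to 0.04 on day 1 and 0.06 to 0.21 on day 3. With a replicate block by culture, the calls over time were 5 in Bcl3-/- and 5 in WT cultures and the interaction had 0, and no call of a chemokine changed.

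Changes of sign concerned values that were not called. For the day 3 genotype difference, Ccl2 gave -0.0065 without the count filter, -0.0052 with the title block, -0.073 with limma on log2(FPKM + 1), with or without the FPKM minimum, and -0.075 on log2(FPKM + 0.1). Ccl7 gave -0.064 and -0.065 in these fits, and Cxcl1 0.0012 with the title block. Leaving out 1 library, this difference ranged over -0.21 to 0.067 for Cxcl1, -0.42 to 0.028 for Cxcl5, -0.16 to 0.20 for Ccl2 and -0.10 to 0.20 for Ccl7. The change over time in WT cultures ranged over -0.17 to 0.073 for Cxcl16 and -0.21 to 0.015 for Ccl2, and the Ccl5 interaction over -1.12 to 0.70. Without replicates 2 and 3 of day 3 Bcl3-/-, Cxcl2 was at 0.33 and Ccl5 at 0.62 on day 3, Cxcl16 at 0.064 and Ccl5 at 0.31 over time in Bcl3-/- cultures, and the interactions were 0.10 for Cxcl16 and 0.033 for Ccl2. The Ccl5 interaction was -0.27 on log2(FPKM + 1), -0.37 on log2(FPKM + 0.1) and -0.071 with the culture block. The causes of these shifts were not tested. Cxcl2 rests on 2 to 35 counts per day 3 Bcl3-/- library.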
